A study of Mus musculus with 8 samples.

Results

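The 8 genes described here are best known from peripheral nerve and were followed through 4 populations of mouse mammary basal cells. They were Sox10, Mbp, Ngfr, L1cam and Cdh19, which mark Schwann cells, and Kcna1, Kcna2 and Adam11, which are known from the voltage-gated potassium channels of the Kv1 class on axons. The rows were found by matching the Entrez identifier of each row to the gene symbol in RefSeq, which gave all 8 genes among the 27164 genes measured. All 8 passed the filter on low counts. They were selected on what the genes are known for and with their CPM values in these same libraries in view, so all differences of these genes between populations are given as descriptions with standard errors and without p-values.

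The cells came from untreated 10-week-old C57BL/6 females carrying Lgr5-GFP-IRES-CreERT2, a knock-in allele that makes green fluorescent protein (GFP) and a tamoxifen-dependent Cre from the Lgr5 locus. This allele was shared by all groups. Basal cells, the outer epithelial layer of the mammary duct, were sorted by flow cytometry into 4 populations named Lgr5-T8-, Lgr5+T8-, Lgr5-T8hi and Lgr5+T8hi, where T8 stands for Tspan8, a tetraspanin of the cell surface. Each population had 2 libraries of total RNA, 1 in each of 2 batches stated in the labels. Whether a library came from 1 mouse or from pooled mice is not stated in the labels, so the spread between them may be partly technical. Tspan8 measured 150 to 289 counts per 1000000 counts (CPM) in the T8hi libraries and 3.16 to 10.6 CPM in the T8- libraries. Lgr5 RNA was 174 to 212 CPM in Lgr5+ libraries, 119 to 129 CPM in Lgr5-T8hi libraries and 50.5 to 58.3 CPM in Lgr5-T8- libraries.

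Schwann cells wrap the axons of peripheral nerves, and some of them build myelin. SOX10 is the transcription factor on which the whole Schwann lineage depends, and it is also made by mammary epithelium. In myelinated axons, channels built from Kv1.1 (Kcna1) and Kv1.2 (Kcna2) are clustered beside the paranode, in the juxtaparanode, where they dampen repetitive firing. ADAM11 belongs with ADAM22 and ADAM23 to a group of membrane proteins that lack protease activity and act as adhesion proteins and receptors of LGI proteins, and it is needed to place Kv1 channels at certain nerve terminals.

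The channel genes are close relatives, and how far reads can be told apart depends on the sequence they share. Kcna1 and Kcna2 were identical at 73.6% of 1475 aligned coding bases, and their longest identical run was 20 bases. The stretches around that run, read from GENCODE M21 transcripts on GRCm38, are shown because they hold the longest run shared by the coding parts. The shared run is in capitals. They lie in the coding part of an exon, at chr6:126642323-126642382 on the minus strand for Kcna1 and at chr3:107105084-107105143 on the plus strand for Kcna2.
Kcna1: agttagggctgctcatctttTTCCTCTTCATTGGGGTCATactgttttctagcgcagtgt
Kcna2: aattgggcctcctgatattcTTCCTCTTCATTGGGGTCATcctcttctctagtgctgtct
Kcna1 and its neighbour Kcna6 shared a longer run of 31 bases, within 73.3% identity overall. These stretches lie at chr6:126643079-126643149 for Kcna1 and chr6:126739636-126739706 for Kcna6, both coding and on the minus strand, again with the shared run in capitals.
Kcna1: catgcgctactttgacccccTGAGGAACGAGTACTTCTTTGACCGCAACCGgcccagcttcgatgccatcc
Kcna6: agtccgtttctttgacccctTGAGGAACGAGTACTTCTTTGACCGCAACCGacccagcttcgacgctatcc
For Kcna2 and Kcna6 the identity was 69.3% and the longest run 23 bases. Reads that fall wholly inside these short runs cannot be assigned to 1 of the genes by sequence. Shorter shared runs were not listed, and the parts of each gene outside the coding sequence were not compared.

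RefSeq promoter windows were at hand for 3 of the 8 genes. The 250 bases before a listed start are shown for Kcna2 and L1cam, whose levels varied together over the libraries. Their coordinates on GRCm38.p6 are chr3:107101317-107101566 on the plus strand for Kcna2 and chrX:73880835-73881084 on the minus strand for L1cam, where it is the more upstream of 2 windows listed. The Kcna2 window lies inside the bounds of the gene given below, so it precedes an internal start and not the outer end of the gene. Capitals mark CG dinucleotides.
Kcna2: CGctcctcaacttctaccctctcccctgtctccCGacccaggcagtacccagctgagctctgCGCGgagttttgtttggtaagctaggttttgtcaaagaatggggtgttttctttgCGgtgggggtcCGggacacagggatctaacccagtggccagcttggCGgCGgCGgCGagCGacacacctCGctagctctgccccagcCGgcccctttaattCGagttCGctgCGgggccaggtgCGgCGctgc
L1cam: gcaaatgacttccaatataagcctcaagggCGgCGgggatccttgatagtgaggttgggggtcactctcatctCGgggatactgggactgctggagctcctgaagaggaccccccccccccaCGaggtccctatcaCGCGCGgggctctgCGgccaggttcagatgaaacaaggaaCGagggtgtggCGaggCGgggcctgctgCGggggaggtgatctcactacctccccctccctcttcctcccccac
The Kcna2 window held 18 CG dinucleotides at 62.4% G and C, and the L1cam window held 12 at 63.2%, beside a median of 52.4% over all windows of this length. Neither window held ACAAAG or ACAATG, forms of the core bound by SOX factors, or the TATA box TATAAA, on either strand. These letters were present in 16.5%, 10.7% and 12.4% of 32851 promoter windows, respectively. Other forms of the SOX core were not searched for, and the Kcna2 window shown holds TCAAAG.

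Libraries held 24571300 to 38384875 counts, so that 3 counts corresponded to 0.0799 to 0.120 CPM. A single library stood apart for these genes. L1cam, Cdh19, Kcna1, Kcna2 and Adam11 were highest in Lgr5-T8hi replicate 1, each at least 1.5 times the level of every other library. Among all 16526 genes tested, 9.03% were highest in this library and 108 (0.654%) exceeded every other library by that factor. In the other 7 libraries, 6 to 259 genes stood out in this way, and none of the 8 genes was among them. Genes of fast skeletal muscle were also among the 108, chosen after their values were seen, such as Myh4 at 3.02 CPM against at most 0.852 CPM elsewhere, and their part in the result was not tested. The differences of the 5 genes are therefore also given without it.

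**Figure D1:**
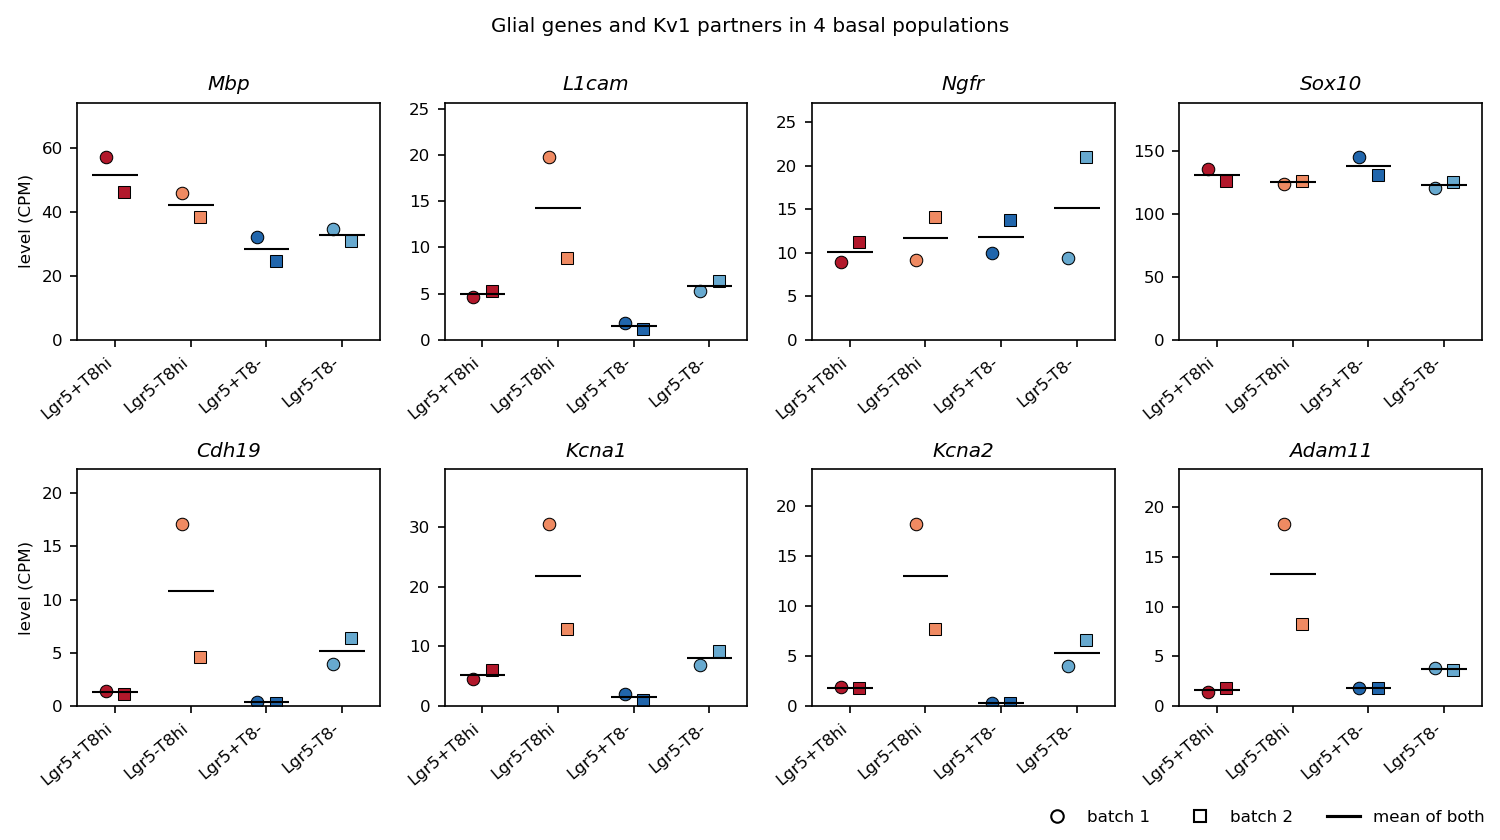
Level of each of the 8 genes in CPM (vertical axes, from 0) in the 4 populations, with circles for batch 1, squares for batch 2 and a line for the mean of both. Kcna1, Kcna2, L1cam, Cdh19 and Adam11 peak in Lgr5-T8hi replicate 1, Mbp is higher in the T8hi populations, and Sox10 lies between 120 and 145 CPM throughout.

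Kcna1, which encodes Kv1.1 and lies on chromosome 6 (126636463 to 126645801, GRCm38.p6), was highest in Lgr5-T8hi and lowest in Lgr5+T8- cells. It measured 30.5 and 13.0 CPM in Lgr5-T8hi replicates 1 and 2, 6.88 and 9.23 CPM in Lgr5-T8-, 4.50 and 5.97 CPM in Lgr5+T8hi and 2.05 and 0.957 CPM in Lgr5+T8-. By mean, the populations ran in the order just given. Both Lgr5-T8hi libraries lay above the other 6, as for 1.49% of all genes tested, although they differed from each other 2.35-fold. Both Lgr5+T8- libraries lay below the other 6, as for 5.52% of all genes. Averaged over Tspan8 status, Kcna1 was lower in Lgr5+ than in Lgr5- cells, with a log2 difference of -2.21 ± 0.37 (standard error). Averaged over Lgr5 status, it was higher in T8hi than in T8- cells by 1.58 ± 0.37 on the log2 scale. Without Lgr5-T8hi replicate 1 the differences were -1.82 and 1.22. The Tspan8 difference was 1.37 ± 0.46 among Lgr5- cells and 1.79 ± 0.59 among Lgr5+ cells. Without that library these became 0.66 and 1.77.

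Kcna2, which encodes Kv1.2 and lies on chromosome 3 (107090883 to 107115005), showed the same order. It measured 18.2 and 7.70 CPM in Lgr5-T8hi, 4.0 and 6.65 CPM in Lgr5-T8-, 1.87 and 1.82 CPM in Lgr5+T8hi and 0.346 and 0.279 CPM in Lgr5+T8-. Here too both Lgr5-T8hi libraries lay above the other 6 (1.49% of all genes tested) and both Lgr5+T8- libraries below (5.52%). The Lgr5+T8- values rest on 11 and 7 reads, against 664 reads in Lgr5-T8hi replicate 1. The log2 difference between Lgr5+ and Lgr5- cells was -3.43 ± 0.40, and that between T8hi and T8- cells was 1.88 ± 0.43. Without Lgr5-T8hi replicate 1 these became -2.95 and 1.49. Within batch 2, where that library is absent, the Lgr5 difference was -3.17 and the Tspan8 difference 1.33. In that batch the Tspan8 difference was 0.21 among Lgr5- cells and 2.46 among Lgr5+ cells. Over both batches it was 1.22 ± 0.43 among Lgr5- cells, and 0.42 without Lgr5-T8hi replicate 1.

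Adam11, on chromosome 11 (102761413 to 102780263), shared the peak of the channel genes but not their low point. It measured 18.3 and 8.25 CPM in Lgr5-T8hi and 3.82 and 3.60 CPM in Lgr5-T8-. The Lgr5+ libraries all lay at 1.38 to 1.85 CPM, so that Lgr5+T8hi and Lgr5+T8- overlapped. The Tspan8 difference was accordingly 1.79 ± 0.32 among Lgr5- cells and -0.16 ± 0.41 among Lgr5+ cells, a difference between them of -1.95 ± 0.52. The 2 batches gave -2.58 and -1.17 for that difference, and it was -1.25 without Lgr5-T8hi replicate 1, with 1.12 among Lgr5- and -0.14 among Lgr5+ cells. The mean Lgr5 difference was -2.03 ± 0.25, and -1.69 without that library.

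L1cam encodes an adhesion molecule of axons and of Schwann cells that do not form myelin, and lies on chromosome X (73853778 to 73880838). It measured 19.7 and 8.84 CPM in Lgr5-T8hi, 5.24 and 6.36 CPM in Lgr5-T8-, 4.61 and 5.29 CPM in Lgr5+T8hi and 1.8 and 1.20 CPM in Lgr5+T8-. The highest and the lowest population stood apart from the rest, and the 2 in the middle overlapped. The log2 differences were -1.72 ± 0.27 for Lgr5 and 1.49 ± 0.27 for Tspan8, and -1.38 and 1.17 without Lgr5-T8hi replicate 1. The Tspan8 difference was 1.24 ± 0.34 among Lgr5- cells and 1.73 ± 0.42 among Lgr5+ cells. Without that library these became 0.61 and 1.73.

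Cdh19 encodes a type II cadherin known from Schwann cell precursors and lies on chromosome 1 (110888002 to 110977601). It measured 17.1 and 4.58 CPM in Lgr5-T8hi, 3.94 and 6.43 CPM in Lgr5-T8-, 1.44 and 1.17 CPM in Lgr5+T8hi and 0.409 and 0.279 CPM in Lgr5+T8-. Both Lgr5- populations lay above both Lgr5+ populations, but the Lgr5- populations overlapped each other. The Lgr5 difference was -3.46 ± 0.55 with all libraries and -2.77 without Lgr5-T8hi replicate 1. The Tspan8 difference was 1.40 ± 0.59, and 0.84 without that library. Among Lgr5- cells alone the Tspan8 difference of 0.88 ± 0.60 turned to -0.24 without it, and to -0.16 without Lgr5-T8- replicate 1. In Lgr5+T8- cells Cdh19 rests on 13 and 7 reads.

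Sox10 was the most abundant of the 8 genes and hardly varied. It lies on chromosome 15 (79154913 to 79164490) and measured 135 and 126 CPM in Lgr5+T8hi, 124 and 126 CPM in Lgr5-T8hi, 145 and 131 CPM in Lgr5+T8- and 120 and 126 CPM in Lgr5-T8-. The highest library exceeded the lowest 1.20-fold. The log2 differences were 0.11 ± 0.07 for Lgr5 and -0.03 ± 0.07 for Tspan8, and the second changed sign when single libraries were left out. Per kilobase of gene length its mean was 47.6 counts per kilobase and per 1000000 counts (RPKM), against 5.77 RPKM for Mbp, 3.57 for Ngfr, 1.45 for Cdh19, 1.25 for L1cam, 1.02 for Kcna1, 1.00 for Adam11 and 0.441 for Kcna2. In the Lgr5+T8- libraries, where Cdh19 and Kcna2 rest on 7 to 13 reads, Sox10 had 4596 and 3285 reads.

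Mbp encodes myelin basic protein, which compacts the myelin sheath, and lies on chromosome 18. It measured 57.1 and 46.3 CPM in Lgr5+T8hi, 45.8 and 38.4 CPM in Lgr5-T8hi, 34.8 and 30.8 CPM in Lgr5-T8- and 32.1 and 24.8 CPM in Lgr5+T8-. All 4 T8hi libraries lay above all 4 T8- libraries. The Tspan8 difference was 0.86 ± 0.09 among Lgr5+ cells and 0.36 ± 0.09 among Lgr5- cells. Unlike Kcna1, Kcna2, Adam11, L1cam and Cdh19, Mbp was highest in Lgr5+T8hi cells, and its mean difference with Lgr5 was 0.04 ± 0.07. Within each population the batch 1 library was the higher, by 1.13-fold to 1.29-fold.

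Ngfr encodes the low-affinity neurotrophin receptor p75, which marks immature Schwann cells and is also known from basal epithelia, and lies on chromosome 11 (95568818 to 95587698). It measured 8.97 and 11.2 CPM in Lgr5+T8hi, 9.17 and 14.1 CPM in Lgr5-T8hi, 9.92 and 13.7 CPM in Lgr5+T8- and 9.36 and 21.0 CPM in Lgr5-T8-. All populations overlapped, and the batch 2 library was the higher in each, by 1.25-fold to 2.24-fold. The log2 differences were -0.27 ± 0.13 for Tspan8 and -0.23 ± 0.13 for Lgr5. Without Lgr5-T8- replicate 2 they shrank to -0.09 and -0.05.

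Read together, the 8 genes followed at least 3 patterns. All Lgr5- libraries lay above all Lgr5+ libraries for Cdh19, Kcna1, Kcna2 and Adam11, a separation shown by 2.21% of all genes tested, and none of the 8 showed the reverse (2.52% of all genes). Both Lgr5-T8hi libraries lay above the other 6 for L1cam, Kcna1, Kcna2 and Adam11 (1.49% of all genes). Both Lgr5+T8- libraries lay below the other 6 for L1cam, Cdh19, Kcna1 and Kcna2 (5.52% of all genes), and the T8hi libraries lay above the T8- libraries for Mbp (4.08% of all genes), with none of the 8 in reverse (2.66%). The genes were chosen with these libraries known, so nothing is read from the counts or from the medians that follow. The medians also pool genes with different patterns. The median log2 difference over the 8 genes was 1.11 for Tspan8 and -1.87 for Lgr5, beside -0.02 and 0.01 over all genes tested. Without Lgr5-T8hi replicate 1 the medians over the 8 genes were 0.74 and -1.53.

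**Figure D2:**
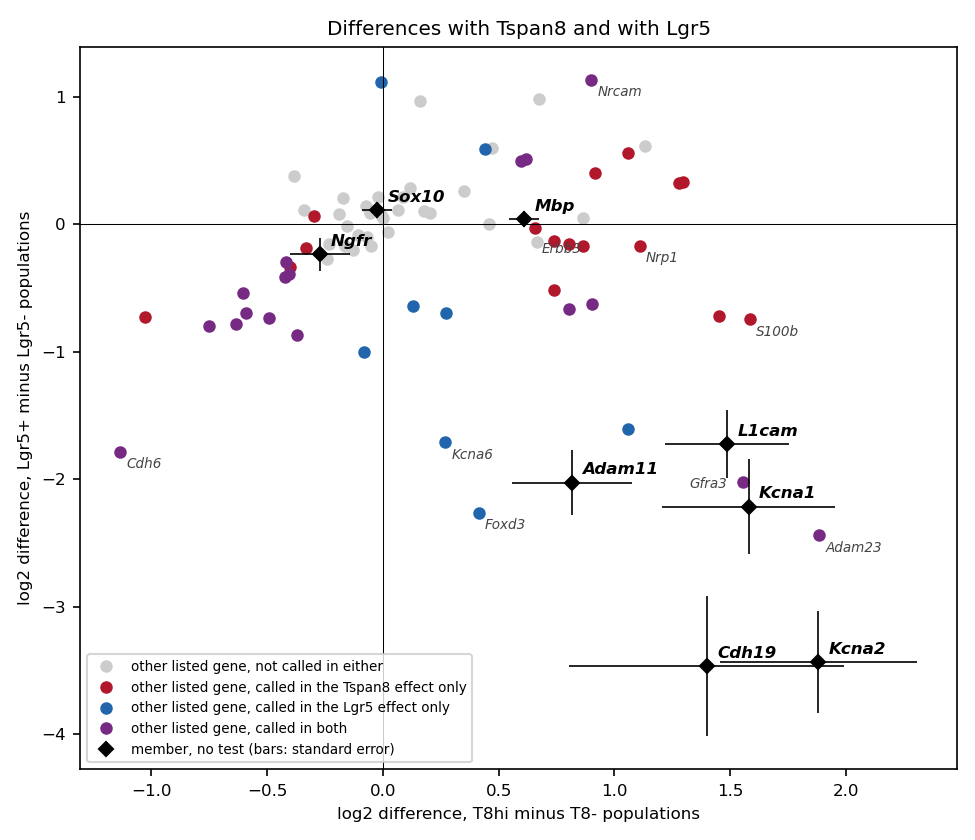
Log2 difference between T8hi and T8- populations (horizontal) against that between Lgr5+ and Lgr5- populations (vertical), with black diamonds and standard errors for the 8 genes and dots for the other listed genes, coloured by the edgeR calls. L1cam, Cdh19, Kcna1, Kcna2 and Adam11 lie at the lower right with Adam23 and Gfra3, whereas Sox10, Ngfr and Mbp lie near the horizontal zero line.

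Over the 8 libraries, with batch means removed, Kcna1 and L1cam ran together with Pearson r = 0.993 of log2 CPM. Cdh19 and Kcna2 gave 0.990, Kcna1 and Kcna2 0.978, and Adam11 0.809 to 0.843 with the other 4. Over the 7 libraries without Lgr5-T8hi replicate 1 these values were 0.989, 0.986, 0.967 and 0.628 to 0.740. These points share libraries, and 1 library is extreme in all of them, so the values describe the profiles and carry no test. Sox10 ran the other way, at -0.61 to -0.75 with the same 5 genes (-0.51 to -0.69 without that library), across its narrow range. Among 12932 genes searched over all 8 libraries, those nearest to L1cam were Fcgr2b, Kcna1 and Arrdc3, with r of 0.992 to 0.995. Nearest to Kcna1 were Arrdc3, Zfp518a and L1cam (0.993 to 0.994), nearest to Kcna2 were Sox6, Cdh19 and Plxnb3 (0.990 to 0.995), and nearest to Cdh19 were Plxnb3, Kcna2 and Cadm2 (0.979 to 0.996). Adam11 was nearest to Col20a1, Cobl and Trf (0.965 to 0.981). Mbp was nearest to Ifit3, Gabra3 and C2 (0.993 to 0.995), Sox10 to Spint2, Mesd and Dpysl2 (0.978 to 0.981), and Ngfr to Tm7sf3, Pisd-ps2 and Ppp3r1 (0.975 to 0.987).

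Other genes of the same systems were taken from 8 lists, 94 genes in all, of which 76 could be tested. The lists were drawn up with earlier results of these data known. Their counts and p-values here and below therefore describe these libraries and are not independent evidence. With edgeR's quasi-likelihood test and Benjamini-Hochberg adjustment over all genes, 19 of the 76 were higher and 14 lower in T8hi than in T8- cells, beside 9.13% higher and 5.52% lower of all genes. For Lgr5, 6 were higher and 21 lower in Lgr5+ cells, beside 4.23% and 4.86%. The Tspan8 difference was larger in Lgr5+ than in Lgr5- cells for 6 and smaller for 1, beside 2.18% and 0.363%. These counts use the batch as a block. Without it they fell to 8 and 3 for Tspan8, 0 and 8 for Lgr5, and 0 and 0 for the interaction, where edgeR called 1 higher and 0 lower of all genes. In that fit 10 listed genes were higher for Lgr5 at an unadjusted edgeR p under 0.05, and 18 higher and 3 lower for the interaction. Without Lgr5-T8hi replicate 1, 13 in place of 21 were lower in Lgr5+ cells, and without Lgr5+T8hi replicate 1, 12.

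Among 6 other Kv1 subunits tested, the channel subunit Kcna6 was lower in Lgr5+ cells. Kcna6 measured 16.4 and 11.2 CPM in Lgr5-T8hi, 7.55 and 11.6 CPM in Lgr5-T8-, 3.55 and 3.55 CPM in Lgr5+T8hi and 4.25 and 2.67 CPM in Lgr5+T8-. Every Lgr5- library lay above every Lgr5+ library, with a log2 difference of -1.71 ± 0.21 (edgeR adjusted p = 0.00165). The auxiliary subunit Kcnab1 was higher in T8hi cells by 0.81 ± 0.16 (edgeR adjusted p = 0.00481) and lower in Lgr5+ cells at -0.67 ± 0.16 (edgeR adjusted p = 0.0221). Kcna5 was higher in T8hi cells by 0.74 ± 0.22 (edgeR adjusted p = 0.0455). Both Kcna5 and Kcnab1 lost these calls without the batch block. The Kcna5 call and the Lgr5 call on Kcnab1 were also lost with DESeq2 and with some single libraries left out. Kcna7, Kcnab2 and Kcnab3 passed neither test. Kcna3, Kcna4 and Kcna10 were too low to test, with at most 6 reads in a library, and Kcna10 had none in any. Per kilobase, Lgr5-T8hi cells held 2.42 ± 1.38 RPKM of Kcna1, 2.36 ± 0.64 of Kcna6 and 1.12 ± 0.64 of Kcna2 (SD, n = 2). In replicate 2 alone the levels were 1.45 RPKM of Kcna1, 1.91 of Kcna6 and 0.664 of Kcna2, so the order of Kcna1 and Kcna6 differed between the libraries.

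**Figure D3:**
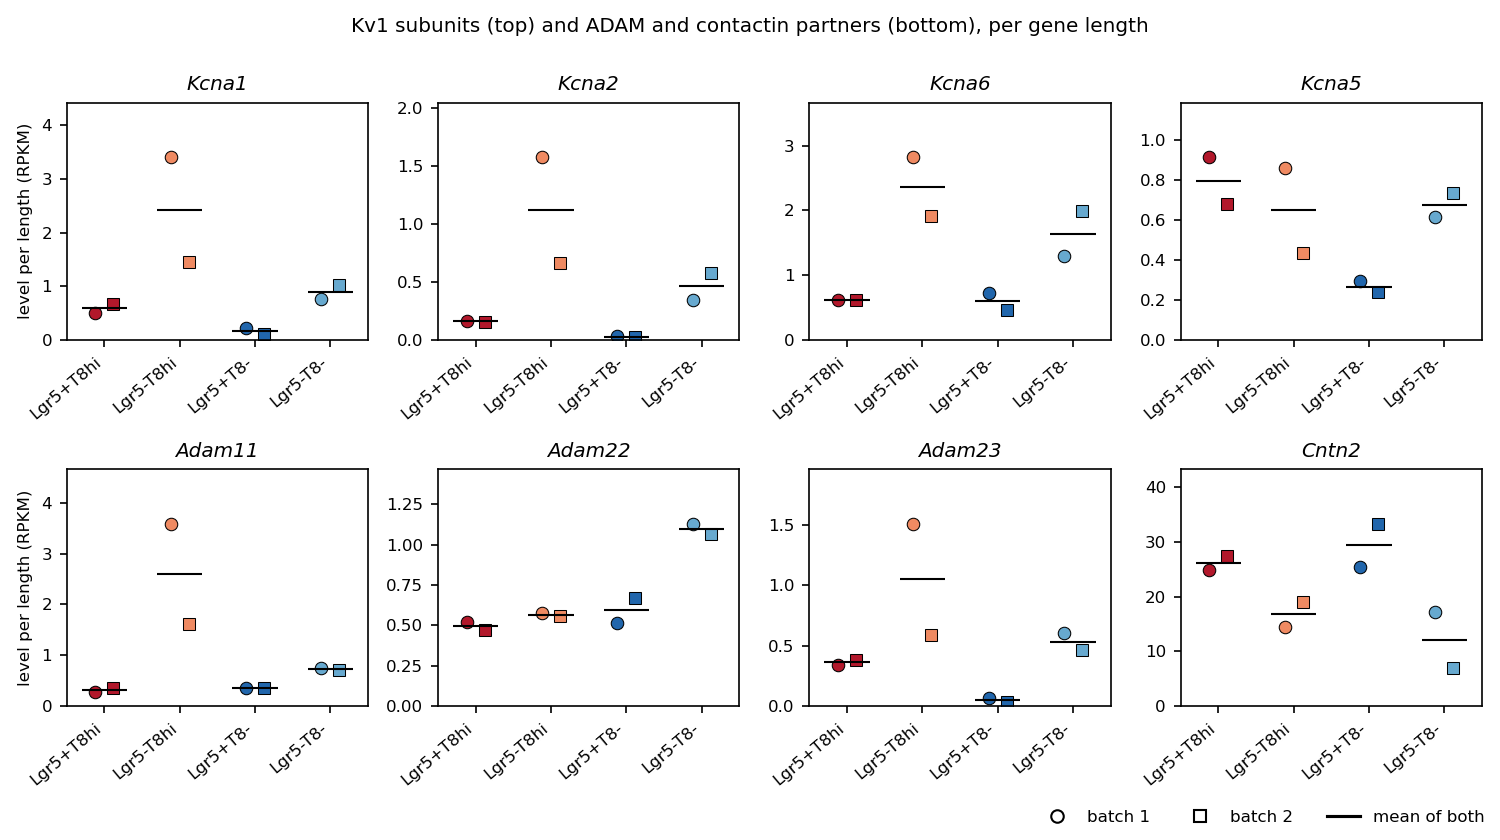
Level per kilobase of gene length (RPKM, vertical axes from 0) of the Kv1 subunits Kcna1, Kcna2, Kcna6 and Kcna5 in the top row and of Adam11, Adam22, Adam23 and Cntn2 in the bottom row, by population, with circles for batch 1, squares for batch 2 and lines for means. Adam23 is lowest in Lgr5+T8- cells, as Kcna1 and Kcna2 are, Adam22 is highest in Lgr5-T8- cells, and Cntn2 reaches 33.3 RPKM in Lgr5+T8- cells.

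Of 11 partners of the axonal channel complex, Adam23 was, like the channel genes, highest by mean in Lgr5-T8hi and lowest in Lgr5+T8- cells. It measured 10.4 and 4.05 CPM in Lgr5-T8hi, 4.15 and 3.20 CPM in Lgr5-T8-, 2.36 and 2.61 CPM in Lgr5+T8hi and 0.441 and 0.239 CPM in Lgr5+T8-. Unlike Kcna1 and Kcna2, its Lgr5-T8hi and Lgr5-T8- libraries overlapped. The Tspan8 difference of 1.89 ± 0.27 and the Lgr5 difference of -2.44 ± 0.27 both passed edgeR's test (adjusted p = 0.00121 and 0.000345) and did so under every alternative tried, including without Lgr5-T8hi replicate 1. Adam22, its relative and the classical LGI1 receptor of Kv1 complexes, did not share this profile. It was highest in Lgr5-T8- cells, at 10.5 and 9.85 CPM against 4.35 to 6.22 CPM elsewhere, and was lower in T8hi cells at -0.60 ± 0.12 (edgeR adjusted p = 0.00545) and in Lgr5+ cells at -0.54 ± 0.12 (edgeR adjusted p = 0.0156). Lgi1, a secreted ligand of these receptors, was higher in Lgr5+ cells by 1.12 ± 0.16 (edgeR adjusted p = 0.000993). The scaffold Dlg2 was also higher in Lgr5+ cells, and the cytoskeletal linker Epb41l3 was lower in T8hi and in Lgr5+ cells. The Tspan8 calls on Adam22 and Epb41l3 and the Lgr5 call on Lgi1 were lost without the batch block. The Lgr5 call on Adam22 was lost without the block and with some single libraries left out.

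The genes of the proteins that tether the channels at the juxtaparanode were at opposite extremes of RNA level. Cntn2, a contactin of axon and glia, was abundant at 66.4 to 318 CPM and passed neither test. Its partner Cntnap2 did not exceed 0.577 CPM and rests on 3 to 20 reads per library. Lgi2 and Lgi3 stayed at or below 1.06 CPM and, like the scaffold Dlg1, passed neither test.

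The Schwann cell lists differed in how many of their genes were called for Lgr5. In the list of precursor and non-myelinating Schwann cell genes, 7 of 13 tested were lower in Lgr5+ cells (Cdh2, Gfap, Gfra3, Foxd3, Matn2, Ncam1 and Col28a1). None was higher by edgeR's adjusted p, by DESeq2 or by limma, and 1 was at an unadjusted edgeR p under 0.05 (Scn7a). The list's median was -0.70, and without Lgr5-T8hi replicate 1 the count was 4 in place of 7. Gfra3, the receptor of artemin, measured 14.6 and 5.51 CPM in Lgr5-T8hi and 0.757 to 1.95 CPM elsewhere. Its Lgr5 difference of -2.02 ± 0.26 and Tspan8 difference of 1.56 ± 0.27 passed edgeR's test (adjusted p = 0.00113 and 0.00354), and were -1.65 and 1.23 without Lgr5-T8hi replicate 1. Cdh2, which encodes N-cadherin, was lower in Lgr5+ cells at -0.74 ± 0.10 (edgeR adjusted p = 0.000534), as was Matn2, a matrix protein of nerve sheaths, at -0.64 ± 0.09 (edgeR adjusted p = 0.00138). The Matn2 difference was -1.07 among T8- cells and -0.21 among T8hi cells.

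In the same list Erbb3, the neuregulin receptor through which axons sustain Schwann cells, and S100b, the calcium-binding protein used to stain them, were higher in T8hi cells. Erbb3 differed by 0.66 ± 0.09 (edgeR adjusted p = 0.000387) and S100b by 1.59 ± 0.29 (edgeR adjusted p = 0.00290), the latter at only 0.239 to 2.97 CPM. Lgi4, the ligand that Schwann cells secrete for axon sorting, was abundant at 99.9 to 148 CPM and passed neither test.

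More myelin genes were called for Tspan8 than for Lgr5, and the same held over all genes tested. Of all genes, 9.13% were higher and 5.52% lower for Tspan8, against 4.23% and 4.86% for Lgr5. Of 15 myelin genes tested, 5 were higher in T8hi cells (Dhh, Mal, Pllp, Ncmap and Cldn19), none above 5.11 CPM in any library. The 2 that were lower, Cnp and Drp2, averaged 69.5 and 68.9 CPM. The list median was 0.74. The abundant Egr2 and Pmp22, averaging 458 and 173 CPM, differed with Tspan8 by only -0.007 and -0.05 and were not called. Markers of other cell types were also higher in T8hi cells by the same test, namely 7 of 7 luminal, 6 of 7 fibroblast, 5 of 8 endothelial, 5 of 6 pericyte and 4 of 7 immune genes, while 4 of 7 basal genes were lower, and their part in the result was not tested. Drp2 was the 1 gene of this list called for Lgr5. At an unadjusted edgeR p under 0.05, 4 of the list were lower in Lgr5+ cells, Drp2 among them, and 0 higher. Mal, a myelin proteolipid, differed by 1.45 ± 0.25 (edgeR adjusted p = 0.00311). Drp2, which links Schwann cells to their basal lamina, was highest in Lgr5-T8- cells at 124 and 103 CPM and was lower in T8hi cells at -0.75 ± 0.07 (edgeR adjusted p = 2.42e-05) and in Lgr5+ cells at -0.80 ± 0.07 (edgeR adjusted p = 2.93e-05). Egr2 and Pmp22, the highest in mean CPM of the list, had no call for the interaction.

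**Figure D4:**
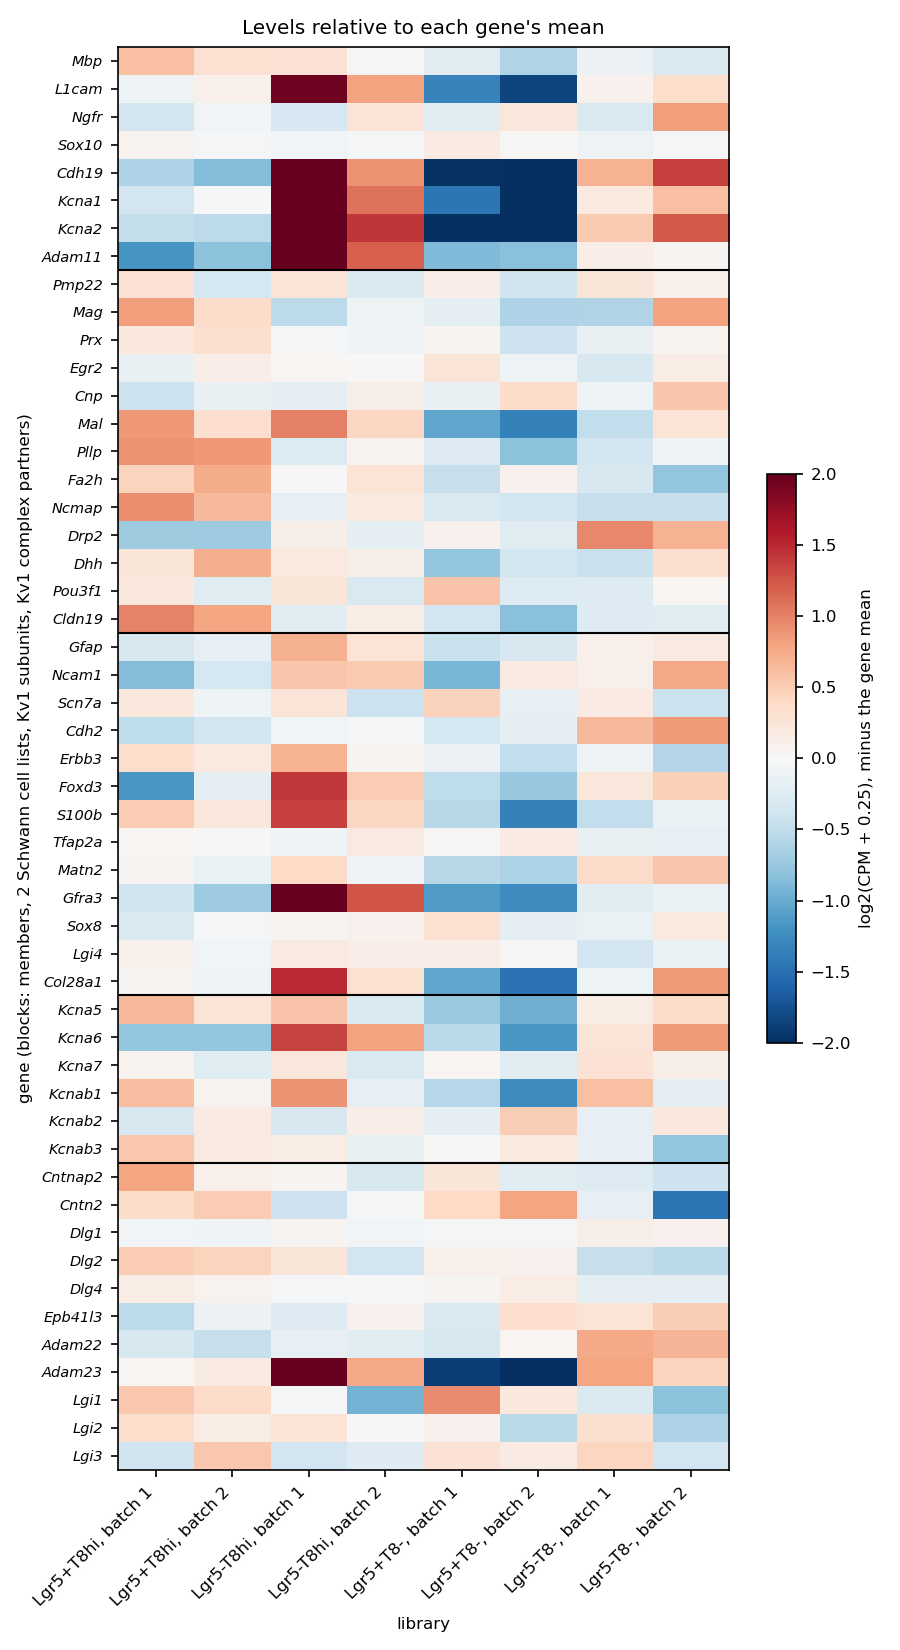
Levels as log2(CPM + 0.25) minus the mean of each gene (colour, red above and blue below the mean, colour scale clipped at its ends) in the 8 libraries (columns), for the 8 genes and for genes of 2 Schwann cell lists, other Kv1 subunits and channel partners (rows, separated by lines). The red cells of Lgr5-T8hi replicate 1 and blue cells of Lgr5+T8- recur in L1cam, Cdh19, Kcna1, Kcna2, Gfra3 and Adam23, while Cldn19 is highest in Lgr5+T8hi.

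At the node of Ranvier and the paranode, the adhesion protein Nrcam differed from its relative L1cam. Nrcam was higher in Lgr5+ cells by 1.13 ± 0.10 (edgeR adjusted p = 1.97e-05) and in T8hi cells by 0.90 ± 0.10 (edgeR adjusted p = 6.21e-05), and it was lowest in Lgr5-T8- cells at 8.52 and 4.04 CPM. Its Tspan8 difference was 1.3 among Lgr5- cells and 0.50 among Lgr5+ cells. The sodium channel gene Scn8a was also higher in both, and Nfasc was higher in T8hi cells. Ank3, the ankyrin of the node, was lower in both. The calls on Nrcam and Ank3 were lost without the batch block.

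Among 12 genes of the L1 family and its partners, Nrp1, the neuropilin that pairs with L1CAM, measured 26.5 and 34.0 CPM in Lgr5+T8hi, 13.5 and 17.7 CPM in Lgr5-T8hi, 5.92 and 6.86 CPM in Lgr5+T8- and 14.7 and 16.6 CPM in Lgr5-T8-. Its Tspan8 difference was 2.24 ± 0.12 among Lgr5+ cells (edgeR adjusted p = 2.08e-06) and -0.02 ± 0.11 among Lgr5- cells (edgeR adjusted p = 0.962). The interaction, 2.25 ± 0.16, passed edgeR's test (adjusted p = 9.49e-05), and the mean Tspan8 difference of 1.11 describes neither the Lgr5+ nor the Lgr5- cells. The ankyrin Ank2 and the integrin Itgb3 were lower in T8hi and in Lgr5+ cells, with Ank2 at -0.59 ± 0.07 and -0.70 ± 0.07 (edgeR adjusted p = 0.000121 and 6.46e-05) and Itgb3 at -0.64 ± 0.09 and -0.78 ± 0.09 (edgeR adjusted p = 0.000406 and 0.000152).

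Among ligands and receptors around Ngfr, the receptor Ntrk2 was low in Lgr5+T8- cells, at 4.19 and 3.11 CPM, against 7.96 to 14.04 CPM in the other 6 libraries. Averaged over the other gate, its differences were 0.90 ± 0.12 for Tspan8 and -0.62 ± 0.12 for Lgr5 (edgeR adjusted p = 0.000314 and 0.00594). The averages hide that the Tspan8 difference was 1.83 ± 0.18 among Lgr5+ cells and -0.02 ± 0.16 among Lgr5- cells, and the Lgr5 difference was -1.55 ± 0.18 among T8- cells and 0.30 ± 0.16 among T8hi cells. Ntrk3 was lower in T8hi and in Lgr5+ cells, both at -0.42 ± 0.08 (edgeR adjusted p = 0.00424 and 0.00718), and the sorting receptor Sort1 was higher in T8hi cells by 0.86 ± 0.11 (edgeR adjusted p = 0.000202). Without Lgr5-T8hi replicate 1, or without the batch block, neither the Lgr5 call on Ntrk2 nor that on Ntrk3 held.

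The other type II cadherins did not repeat the profile of Cdh19. Of 12 listed, 5 could be tested. Cdh6 shared the low level in Lgr5+ cells at -1.78 ± 0.22 (edgeR adjusted p = 0.000296), but was highest in Lgr5-T8- cells, at 8.58 and 6.65 CPM, and lower in T8hi cells at -1.13 ± 0.22 (edgeR adjusted p = 0.00427). Cdh11 showed the same directions, at -0.87 ± 0.09 for Lgr5 (edgeR adjusted p = 0.000112) and -0.37 ± 0.09 for Tspan8 (edgeR adjusted p = 0.0171). The Tspan8 difference of Cdh11 was -0.80 among Lgr5- cells and 0.05 among Lgr5+ cells. Cdh10 was higher in T8hi cells by 0.62 ± 0.08 and in Lgr5+ cells by 0.51 ± 0.08 (edgeR adjusted p = 0.000217 and 0.00122).

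Markers of other cell types were summed to see what moved with these genes. The sorted cells held the defining basal genes, with a summed level of 12543 to 19251 CPM for 7 basal markers, and 657 to 1537 CPM for 7 luminal markers. The basal sum was 12543 to 15063 CPM in T8hi and 16115 to 19251 CPM in T8- libraries. In bulk RNA, fewer cells of a type and less RNA per cell cannot be told apart. Neuron markers summed to 6.10 to 12.2 CPM over 11 genes, and Snap25, a defining synaptic gene, had 1 read in 1 library and 0 in the other 7. Of 10 neuron markers tested, Stmn2 and Uchl1 were higher in T8hi cells by 1.52 ± 0.31 and 1.35 ± 0.29 (edgeR adjusted p = 0.00757 and 0.00690), at 0.303 to 4.01 CPM, and Rbfox3 was lower. Melanocyte markers, of interest because melanocytes also make SOX10, summed to 2.77 to 6.89 CPM over 8 genes, nearly all of it Pmel, and Tyr was at 0 in 7 of 8 libraries. Dct, another melanocyte gene, had 27 reads in Lgr5+T8hi replicate 1 and 24 in Lgr5-T8hi replicate 1, the library where the 5 genes peaked, against 0 to 2 in the other 6, and was called higher in T8hi cells (edgeR adjusted p = 0.00120).

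Endothelial markers summed to 359 and 399 CPM in Lgr5+T8hi, 104 and 214 CPM in Lgr5-T8hi, 70.3 and 94.5 CPM in Lgr5+T8- and 132 and 145 CPM in Lgr5-T8-. Fibroblast markers summed to 942 and 1165, 825 and 673, 304 and 333, and 539 and 700 CPM in the same order of populations. Pericyte markers ran from 60.7 CPM in Lgr5+T8- to 166 CPM in Lgr5+T8hi, and immune markers from 15.1 to 44.1 CPM between the same populations. All 4 of these lists were lowest in Lgr5+T8- cells, as were L1cam, Cdh19, Kcna1 and Kcna2, and highest in a T8hi population. In Lgr5-T8hi replicate 1, where L1cam, Cdh19, Kcna1, Kcna2 and Adam11 peaked, no gene of the 8 marker lists reached 1.5 times every other library. Of the Schwann and channel lists, genes that did were Foxd3, S100b, Gfra3, Col28a1 and Adam23. Whether other cells contributed the RNA of the 5 genes was not tested.

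**Figure D5:**
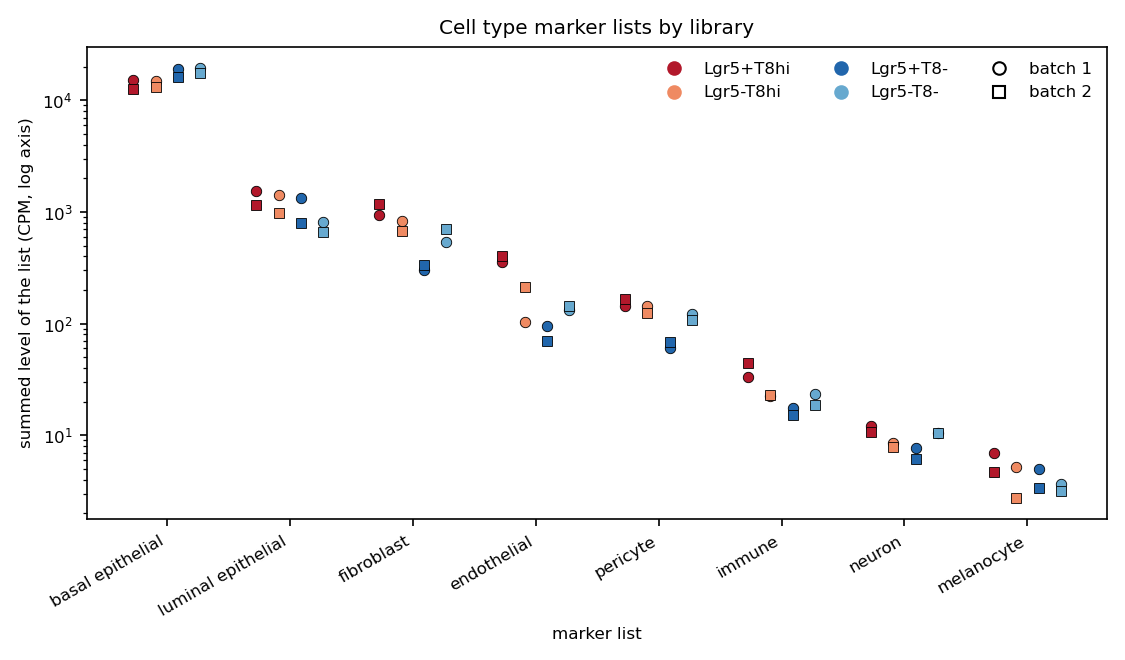
Summed level of each marker list in CPM (vertical log axis) by library, coloured by population, with circles for batch 1 and squares for batch 2. Endothelial, fibroblast, pericyte and immune lists are lowest in Lgr5+T8-, and the neuron and melanocyte lists stay at or below 12.2 CPM.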

How the data were processed

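RNA of sorted mouse mammary basal cells was sequenced single-end in 8 libraries (4 populations, 2 batches), per the labels' protocols. The authors deposited raw counts of reads per Entrez gene with gene lengths. Per the submitters' processing notes, GRCm38 (mm10) was the genome, and featureCounts, CASAVA 1.8.2, limma 3.24.14 and edgeR 3.10.2 are named there without their roles. The aligner and any use of strand are not given in the sources used here, so reads of overlapping genes may be shared. RefSeq lists other genes within the bounds of Mbp, Cdh19 and Kcna2, and these are not among the rows of the count tables.

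Symbols were matched through RefSeq (GRCm38.p6) for 25260 of 27164 genes. Tests used glmQLFit and glmQLFTest of edgeR 4.0.16 (with limma 3.58.1 in R 4.3.3) on the deposited counts of all 8 libraries, with TMM scaling, filterByExpr (minimum count 10, which left 16526 genes), a model of population plus batch, two-sided, Benjamini-Hochberg over all genes tested, threshold 0.05. The Tspan8 effect is the mean of both T8hi minus both T8- populations, the Lgr5 effect likewise, and the interaction is the Tspan8 effect in Lgr5+ minus that in Lgr5- cells. The standard error is the absolute log2 difference divided by the square root of F. CPM used TMM-adjusted totals, RPKM divided CPM by gene length, and log2 CPM used a prior count of 2. The batch equals the replicate number, and deviations of same-numbered libraries from their population means correlated at 0.516 to 0.665 over 6 pairs of populations. No replicates were 1 library deposited again (chi-square per degree of freedom 30.3 to 47.8). The procedure was tested on simulated data.

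The 8 genes and the gene lists were chosen with earlier results of these data known. Named were, per list and comparison, up to 3 called genes with the smallest adjusted p (or the 2 most abundant where none was called), all Kv1 subunits, Adam22, Adam23, Lgi1 to Lgi4, Cntnap2, Cntn2, Erbb3 and S100b, and per gene the 3 nearest in profile among genes averaging 1 CPM or more, unnamed and predicted genes left out. Some listed genes that the rule names are counted but not reported here. Other members named in a list's count were named after their values were seen. Alternatives were no block, RLE scaling, other filters, DESeq2 1.42.0, limma-voom and leaving out each library.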

Additional observations from a re-analysis of the deposited data

Results flagged for a closer look

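For 7 listed genes the Tspan8 difference itself differed between Lgr5+ and Lgr5- cells in edgeR's interaction test. The values below are the difference in Lgr5+ cells minus that in Lgr5- cells, in log2. Nrp1, a neuropilin, gave 2.25 ± 0.16 (adjusted p = 9.49e-05), and Ntrk2, a neurotrophin receptor, 1.85 ± 0.24 (adjusted p = 0.00239). Ntf3, a neurotrophin, gave 2.08 ± 0.46 (adjusted p = 0.0368) at 0.630 to 3.20 CPM. Matn2 gave 0.85 ± 0.18 (adjusted p = 0.0373), Cdh11 0.85 ± 0.18 (adjusted p = 0.0327) and Sorcs2, a receptor that pairs with p75, 0.68 ± 0.13 (adjusted p = 0.0218). Nrcam gave the opposite sign, -0.80 ± 0.19 (adjusted p = 0.0481). None of these 7 calls held without the batch block. Those on Ntf3, Matn2, Cdh11, Sorcs2 and Nrcam were also lost with some single libraries left out, unlike those on Nrp1 and Ntrk2. By mean CPM, Nrp1, Ntrk2, Sorcs2 and Nrcam were highest in Lgr5+T8hi cells, but Ntf3, Matn2 and Cdh11 were highest in Lgr5-T8- cells. The summed endothelial, fibroblast, pericyte and immune markers were highest by mean in Lgr5+T8hi cells. Their part in the result was not tested.

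Mbp was higher in Lgr5+ than Lgr5- cells within T8hi in both batches (0.32 and 0.27) and lower within T8- in both (-0.12 and -0.31), a difference of 0.51 ± 0.13 that was not tested. For Sox10 the Tspan8 difference was negative in both batches of Lgr5+ cells and positive in both batches of Lgr5- cells. The gap between them, -0.10 ± 0.13, was smaller than its standard error and was not tested.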

How the results depend on the processing

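Without the replicate block, 8 of the 76 listed genes were higher and 3 lower for Tspan8, 0 and 8 for Lgr5, and 0 and 0 for the interaction, against 19 and 14, 6 and 21, and 6 and 1 with the block. Over all genes, edgeR then called 550 higher and 155 lower for Tspan8 (1509 and 912 with the block), 89 and 130 for Lgr5 (699 and 803) and 1 and 0 for the interaction (361 and 60). Of 49 calls on named genes, 32 were lost without the block. The 1 lower interaction call, Nrcam, also became 0 with RLE scaling, with a filter of 1 CPM in 4 libraries and with DESeq2, with 4 or 5 genes at an unadjusted p under 0.05. With each library left out in turn, the counts ran from 12 to 25 higher and 9 to 17 lower for Tspan8, 3 to 8 and 12 to 25 for Lgr5, and 2 to 11 and 0 to 3 for the interaction. Several libraries shared the lowest counts for higher with Lgr5 and for the interaction, and the cause was not tested. No named call changed direction. For Lgr5, the calls on Adam23, Gfra3, Kcna6, Drp2, Cdh2, Cdh6, Cdh11 and Ank2 held in all 14 alternatives. For Tspan8, those on Adam23, Gfra3, S100b, Mal, Drp2, Cdh6, Ank2, Nrp1 and Ntrk2 held in all 14. Values under about 1 CPM, as for Cdh19 and Kcna2 in Lgr5+T8- cells, rest on few reads.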

Other observations

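Other genes that stood out in Lgr5-T8hi replicate 1 were chosen after their values were seen and are given as values. Genes of fast skeletal muscle were among the 108: Myh4, a fast myosin, measured 3.02 CPM there against at most 0.852 CPM elsewhere, Neb (nebulin) 2.14 against 0.667 CPM, Atp2a1 (the calcium pump of fast muscle) 4.31 against 2.37 CPM, and Myod1 (a muscle transcription factor) 1.15 against 0.453 CPM. Pvalb, Actn3, Tnnt3, Tnni2 and Myl1 were raised by the same measure, at 1.37 to 1.98 CPM.

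Genes with known roles in glia were also among them. Gpr37l1, a receptor of glial cells, measured 4.83 CPM against at most 1.95 CPM elsewhere. Aspa, an enzyme of oligodendrocytes, measured 5.44 against 2.43 CPM, and Cadm2, an adhesion molecule of nerve, 6.32 against 2.50 CPM. Fcgr2b, the gene nearest to L1cam in profile, measured 9.09 against 3.36 CPM. Fabp7, a gene of Schwann cell precursors too low to test, had 28 reads there and 0 to 6 in the other libraries.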
